A study of Mus musculus with 4 samples.

Results

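Macrophages take up lipoprotein cholesterol through the endolysosome, store part of it as cholesterol ester in lipid droplets and pass the rest between membranes. The 10 genes described here, of 13834 in the count table, encode proteins of these steps: the enzyme that makes cholesterol ester (Soat1), the hydrolases that release free cholesterol from it (Nceh1, Lipa), the proteins of endolysosomal export (Npc1, Npc2, Stard3) and carriers at membrane contact sites (Osbp, Osbpl8, Gramd1a, Gramd1b). They were chosen by name for these roles, although with earlier results of these data known, and all 10 were in the table and passed the filter on low counts, as did 12542 genes in all.

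The data are gene counts from 4 RNA libraries of mouse peritoneal macrophages, 2 with and 2 without Dnmt1 deletion, and the comparison asks which transcripts differ when Dnmt1 is deleted. Dnmt1 is the maintenance DNA methyltransferase, which copies CpG methylation to the new strand after DNA replication. The controls carried floxed Dnmt1 alleles (Dnmt1 fl/fl) by their titles and the study's methods, while their genotype label reads wt, and the Dnmt1 KO macrophages came from mice with the same floxed alleles and Cre under the LysM promoter, which is active in macrophages, neutrophils and other myeloid cells, so that Dnmt1 stays intact in lymphocytes and tissue cells. By the study's methods the mice were 10 weeks old, and the cells were washed from the peritoneal cavity 3 days after a thioglycolate injection and then cultured. The labels give the cells no further treatment. Sex was not given. The study defines its sample numbers only in general, as independent repeats, cells, tests or animals, and the labels tie no sample to an animal, so the p-values below measure the spread between these 4 samples, which may be technical.

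In this cycle the acyltransferase SOAT1 joins cholesterol to a fatty acid in the endoplasmic reticulum, and NCEH1 at the same membrane hydrolyses the ester again. Esters that arrive inside lipoproteins are cleaved by lysosomal acid lipase, the product of Lipa. The soluble protein NPC2 then passes the free cholesterol to NPC1 in the limiting membrane of the late endosome, and lipid transfer proteins carry it on to other membranes without vesicles. Cells that lack NPC1 or NPC2 fill their endolysosomes with free cholesterol, and cells that lack lysosomal acid lipase fill them with ester.

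Dnmt1 acts on CpG, so the CpG content of the members' promoters is given first, although methylation itself was not measured in these samples. RefSeq promoter windows on build GRCm38.p6, the 250 bases before each transcription start, were at hand for 8 of the 10 genes. They held 23 CpG for Osbp and Osbpl8, 16 for Npc2, 15 for Nceh1 and Stard3, 12 for Soat1, and 5 for Lipa and Gramd1a, against a median of 6 over 32851 mouse promoters, whose quartiles were 2 and 16. Thus 6 of the 8 lay at or above the median of promoters that were not limited to genes expressed in these samples. The windows are shown for the 4 genes with the largest fold changes in either direction, 5′ to 3′ on the gene's own strand, with each CpG in capitals and without bases that GENCODE M21 assigns to exons of protein-coding genes. The Soat1 stretch (chr1:156474332-156474578, minus strand) carries all 12 CpG of its window, most of them near its 3′ end. The Npc2 stretch (chr12:84773153-84773250, minus strand) carries 6 and is short because the exons of Isca2, which runs the other way, fill the far side of its window. The Osbpl8 stretch (chr10:111164552-111164751, plus strand) carries 17. The Gramd1a window (chr7:31151172-31151421, minus strand) carries 5 and lies over an exon of the antisense transcript G630030J09Rik. It belongs to a RefSeq start inside the gene as GENCODE M21 draws it, downstream of that annotation's 5′ end at 31155896, so its 5 CpG describe that start alone.
Soat1: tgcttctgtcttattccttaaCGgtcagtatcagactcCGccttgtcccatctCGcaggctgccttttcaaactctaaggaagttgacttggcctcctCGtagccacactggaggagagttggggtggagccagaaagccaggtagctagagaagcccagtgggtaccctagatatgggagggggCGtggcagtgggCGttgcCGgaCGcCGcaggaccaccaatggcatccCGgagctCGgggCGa
Npc2: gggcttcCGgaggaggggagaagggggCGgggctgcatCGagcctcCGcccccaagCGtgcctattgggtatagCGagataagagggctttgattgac
Osbpl8: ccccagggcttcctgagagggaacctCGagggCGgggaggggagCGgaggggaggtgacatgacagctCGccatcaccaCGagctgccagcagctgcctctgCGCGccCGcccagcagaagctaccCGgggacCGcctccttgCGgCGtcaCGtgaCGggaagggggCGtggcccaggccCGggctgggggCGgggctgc
Gramd1a: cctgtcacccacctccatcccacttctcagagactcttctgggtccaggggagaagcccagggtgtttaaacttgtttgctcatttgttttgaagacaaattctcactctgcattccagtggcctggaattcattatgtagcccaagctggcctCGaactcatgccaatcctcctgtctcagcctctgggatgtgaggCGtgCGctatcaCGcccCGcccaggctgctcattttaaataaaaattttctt

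These windows were searched on both strands for 4 short motifs. The letters CACGTG, the E-box bound by USF factors among others, were found in Nceh1 and Osbpl8, and in 6.02% of all promoters. The longer TCACGTGA, which contains CACGTG and is close to the element that lysosomal genes share, was found in 1 of the 8 windows, that of Osbpl8, and in 0.785% of all promoters. The Sp1-type box GGGCGG was found in 5 of the 8 windows (32.7% of all promoters) and CCAAT in 7 of the 8 (33.8%). These matches describe the letters alone, not binding, and the promoters they are set beside were not limited to genes expressed in these samples.

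Estimated counts summed to between 20228071 (Dnmt1 fl/fl replicate 1) and 24198943 (Dnmt1 fl/fl replicate 2) per library. Dnmt1 was measured at 86.6 and 67.0 CPM (counts divided by the library total, itself scaled by the trimmed mean of M values, TMM) in the Dnmt1 fl/fl samples and at 37.0 and 42.7 CPM in the Dnmt1 KO samples, so both KO samples lay below both controls (log2 fold change -0.95, SE 0.24, edgeR unadjusted p = 0.00839, adjusted p = 1.00). Dnmt1 KO replicate 1 stood apart from the other samples on the first principal component, which took 73.6% of the variance. Macrophage markers summed to 5741 to 6555 CPM, with 7 of 7 in the table, so the defining markers of the labelled cell type were present. The 8 neutrophil markers in the table, of 12 listed, were all highest in that KO sample and summed to 882 CPM there against 215 to 319 CPM in the other 3, and Mpo, Elane, Ngp and Camp were not among the genes of the table. Its 6 B cell markers summed to 130 CPM against 318 to 525 CPM, and its 5 markers of resident large peritoneal macrophages to 132 CPM against 316 to 362 CPM. The markers of dendritic cells (5 of 5), T cells (7 of 7), mesothelial cells (5 of 5), mast cells (5 of 5), eosinophils (2 of 4, without Epx and Prg2) and red blood cells (1 of 5) summed to at most 48.1 CPM in any sample. In bulk RNA, fewer cells of a type and less RNA per cell cannot be told apart, and the part of these other cells in the values below was not tested.

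Levels were compared between genes as CPM per kilobase of the longest GENCODE M21 transcript. Npc2 and Lipa, whose products bind and release free cholesterol in the lysosome, stood highest. Npc2 lay at 375 to 564 CPM per kilobase over the 4 samples (mean 445), Lipa at 204 to 291 (mean 256) and Nceh1 at 62.4 to 87.7 (mean 74.8). A middle group followed, with means of 55.7 for Soat1, 47.6 for Osbpl8, 47.4 for Npc1 and 36.3 for Stard3. Gramd1a (17.9), Osbp (16.9) and Gramd1b (8.95) stood lowest on this scale. Neighbours in this order whose sample ranges did not overlap were Npc2 and Lipa, Lipa and Nceh1, Stard3 and Gramd1a, and Osbp and Gramd1b. The ranges of the other 5 neighbouring pairs overlapped. Within a sample, Nceh1 was above Soat1 and Npc1 above Stard3 in 4 of 4 samples, Gramd1a above Osbp in 3, and Soat1 above Osbpl8 and Osbpl8 above Npc1 in 2 each. Among 12509 genes with a length, the level of Npc2 was at or above that of 99.0% and that of Lipa at or above 98.1%, while Gramd1b was at or above 56.7%. With the length of the transcript that RefSeq shares, Lipa moved to 336 CPM per kilobase and its range met that of Npc2, and with all exons joined Osbp stood above Gramd1a. The levels depend on the length used: with all exons joined the means were 270.1 for Npc2, 147 for Lipa, 24.1 for Npc1 and 22.1 for Stard3.

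**Figure D1:**
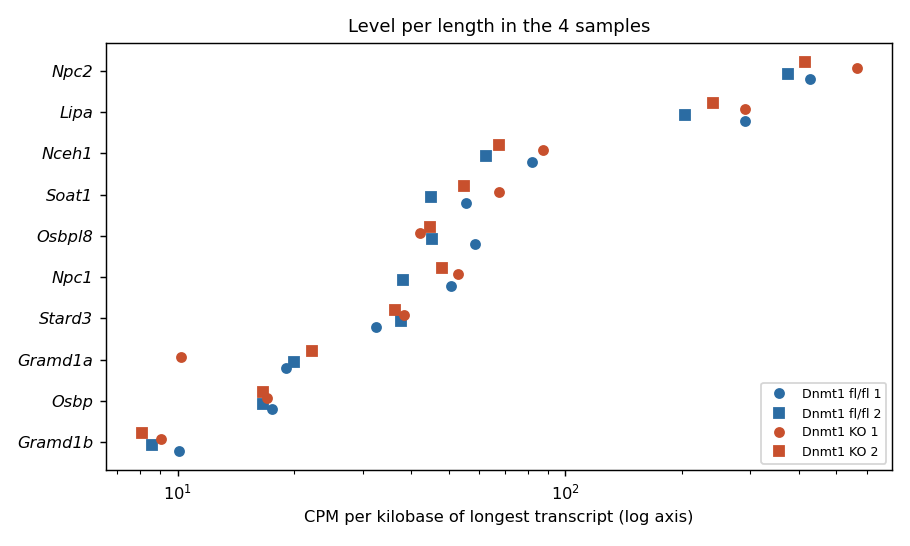
Level of each gene in each of the 4 samples, in CPM per kilobase of the longest transcript on a log axis, with blue for Dnmt1 fl/fl, red for Dnmt1 KO, circles for replicate 1 and squares for replicate 2. Npc2 lies at 375 to 564 and Gramd1b at 8.08 to 10.1, and the circle of Dnmt1 KO for Gramd1a, at 10.2, lies apart from the other 3 samples.

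Soat1 encodes the acyltransferase that esterifies free cholesterol in the endoplasmic reticulum, and lies on chromosome 1 from 156424525 to 156474331 on the minus strand (mm10, as all positions here). It was measured at 464 and 377 CPM in the Dnmt1 fl/fl samples and at 566 and 458 CPM in the Dnmt1 KO samples. Dnmt1 KO replicate 1 was the highest, and Dnmt1 KO replicate 2 lay just under Dnmt1 fl/fl replicate 1, so the genotypes overlapped. The means were 420 ± 61.8 CPM (SD, n = 2) and 512 ± 76.2 CPM (SD, n = 2), a log2 fold change of 0.28 (SE 0.25, 95% interval -0.35 to 0.91). The SD pooled over both genotypes was 0.21 on the log2 scale. The fold change was 0.12 without Dnmt1 KO replicate 1, 0.15 without Dnmt1 fl/fl replicate 2, 0.43 without Dnmt1 KO replicate 2 and 0.44 without Dnmt1 fl/fl replicate 1, and 0.52 after a trend with transcript length was removed from each library (the length trend).

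The hydrolases that work against it had smaller fold changes, with 95% intervals that overlapped that of Soat1. Nceh1, the neutral ester hydrolase of macrophages (chromosome 3, 27182965 to 27284608, plus strand), stood at 366.5 and 279.5 CPM in Dnmt1 fl/fl and at 393 and 302 CPM in Dnmt1 KO. In both genotypes replicate 1 was the higher sample, and the distance between replicates was larger than the distance between genotypes, both as for Soat1. Its log2 fold change was 0.11 (SE 0.27, 95% interval -0.56 to 0.77). Lipa, which encodes lysosomal acid lipase (chromosome 19, 34492318 to 34527474, minus strand), stood at 1133 and 794 CPM in Dnmt1 fl/fl and at 1132 and 935 CPM in Dnmt1 KO, so the replicate 1 samples of both genotypes were level. Its log2 fold change was 0.10 (SE 0.29, 95% interval -0.61 to 0.82). Leaving out 1 sample at a time moved Nceh1 between -0.10 and 0.32 and Lipa between -0.13 and 0.38, so neither kept 1 direction. Removal of the length trend gave 0.22 for Nceh1 and 0.18 for Lipa, and scaling by total counts only gave 0.02 for each.

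For endolysosomal export, Npc2 encodes the soluble protein of the lysosome lumen that binds released cholesterol (chromosome 12, 84754562 to 84773152, minus strand). It was measured at 1410 and 1236 CPM in Dnmt1 fl/fl and at 1860 and 1370 CPM in Dnmt1 KO. Dnmt1 KO replicate 1 lay above the other 3 samples, and Dnmt1 KO replicate 2 lay between the controls. The log2 fold change was 0.29 (SE 0.28, 95% interval -0.40 to 0.97). It fell to 0.05 without Dnmt1 KO replicate 1, which stood apart on the first principal component, and was 0.49 without Dnmt1 KO replicate 2. Npc1 encodes the membrane protein that receives cholesterol from NPC2 (chromosome 18, 12189692 to 12236400, minus strand), and stood at 292 and 220 CPM in Dnmt1 fl/fl and at 304 and 276 CPM in Dnmt1 KO. Dnmt1 fl/fl replicate 2 was the low sample, and the log2 fold change was 0.18 (SE 0.25, 95% interval -0.44 to 0.80) with all samples, -0.0050 without it, 0.40 without Dnmt1 fl/fl replicate 1 and 0.34 after removal of the length trend. Exons of Npc1 share 511 bases with exons of Rmc1 on the opposite strand, and whether counting used strand is not stated. Rmc1 was listed at 40.1 to 52.9 CPM, and without strand the reads of the 2 genes could not be told apart in the shared bases.

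Stard3 encodes a sterol-binding protein of the late endosome that tethers it to the endoplasmic reticulum (chromosome 11, 98358368 to 98381112, plus strand). Its levels were 70.7 and 82.0 CPM in Dnmt1 fl/fl and 83.2 and 78.8 CPM in Dnmt1 KO. The Dnmt1 KO values fell on both sides of the higher control, and the log2 fold change was 0.09 (SE 0.22, 95% interval -0.45 to 0.62). It was -0.02 without Dnmt1 fl/fl replicate 1 and 0.20 without Dnmt1 fl/fl replicate 2.

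**Figure D2:**
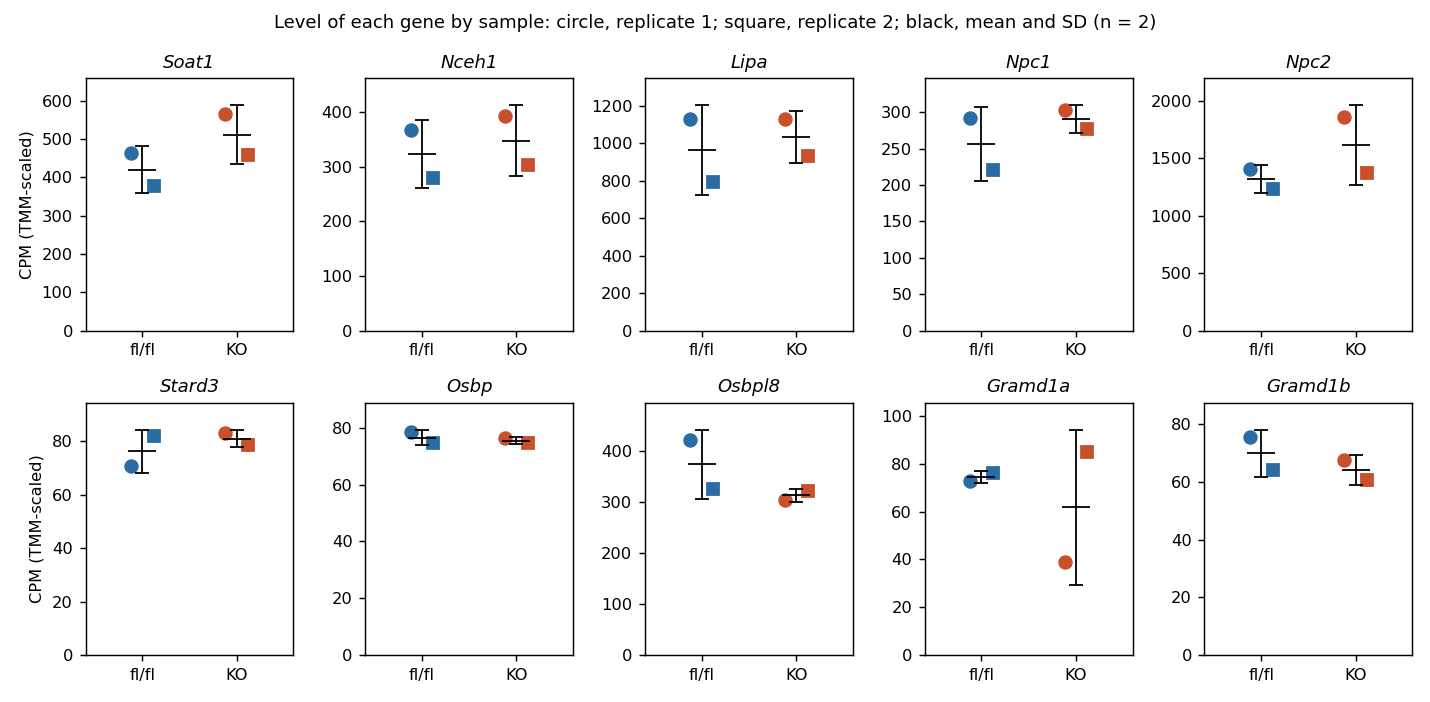
Level of each of the 10 genes in TMM-scaled CPM by genotype, each panel on its own axis from 0, with circles for replicate 1, squares for replicate 2 and black lines for the mean and SD of the 2 samples. The genotypes overlap in every panel but that of Osbpl8, where both Dnmt1 KO samples (303 and 322 CPM) lie below both Dnmt1 fl/fl samples (422 and 326 CPM).

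Osbp and Osbpl8 are members of the oxysterol-binding protein family. OSBP carries cholesterol from the endoplasmic reticulum to the Golgi in exchange for phosphatidylinositol 4-phosphate, and its gene (chromosome 19, 11965941 to 11994112, plus strand) had the smallest spread of the 10, at 78.5 and 74.6 CPM in Dnmt1 fl/fl and 76.4 and 74.6 CPM in Dnmt1 KO. Its log2 fold change was -0.02 (SE 0.21, 95% interval -0.53 to 0.49), and its SD pooled over both genotypes was 0.04 on the log2 scale. OSBPL8, also called ORP8, is anchored in the endoplasmic reticulum and exchanges phosphatidylserine for phosphoinositides at contacts with the plasma membrane. Its gene (chromosome 10, 111164752 to 111297249, plus strand) stood at 422 and 326 CPM in Dnmt1 fl/fl and at 303 and 322 CPM in Dnmt1 KO. Both Dnmt1 KO samples thus lay below both controls, but Dnmt1 KO replicate 2 and Dnmt1 fl/fl replicate 2 were only 0.02 apart on the log2 scale. The log2 fold change was -0.26 (SE 0.24, 95% interval -0.86 to 0.35). Without Dnmt1 fl/fl replicate 1 it was -0.06, without Dnmt1 fl/fl replicate 2 it was -0.43, and after removal of the length trend it was -0.08 and the genotypes overlapped.

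The Aster proteins GRAMD1A and GRAMD1B sit in the endoplasmic reticulum and draw accessible cholesterol out of the plasma membrane. Gramd1a (chromosome 7, 31130127 to 31155896, minus strand) stood at 72.6 and 76.1 CPM in Dnmt1 fl/fl and at 38.9 and 84.8 CPM in Dnmt1 KO. The Dnmt1 KO samples were thus the lowest and the highest of the 4. Their distance of -1.12 on the log2 scale (replicate 1 less replicate 2) was matched or passed, in either direction, by 15.3% of all genes tested. The log2 fold change was -0.27 (SE 0.39, 95% interval -1.23 to 0.70). It was 0.19 without Dnmt1 KO replicate 1 and -0.93 without Dnmt1 KO replicate 2, the latter with an edgeR adjusted p of 0.020 that rested on a single Dnmt1 KO sample. That fit called 8.32% of all genes it tested (1061 of 12754), so 1 of the 10 genes is near its background. Gramd1b (chromosome 9, 40293233 to 40531383, minus strand) stood at 75.7 and 64.2 CPM in Dnmt1 fl/fl and at 67.8 and 60.5 CPM in Dnmt1 KO, with a log2 fold change of -0.13 (SE 0.22, 95% interval -0.67 to 0.42). Without Dnmt1 fl/fl replicate 1 this was -0.0013, without Dnmt1 KO replicate 2 -0.05, without Dnmt1 KO replicate 1 -0.21 and without Dnmt1 fl/fl replicate 2 -0.23. After removal of the length trend it turned to 0.07. Antisense transcripts overlap exons of both genes, by 420 bases (G630030J09Rik) for Gramd1a and by 114 bases (1700110K17Rik) for Gramd1b, and neither antisense transcript has a row of its own in the table.

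Over the 10 genes, 6 had a positive and 4 a negative log2 fold change, with a median of 0.09 against 0.0046 over all genes tested. Over all genes the signs were 6380 and 6162. Without Dnmt1 KO replicate 1 the 10 genes were 5 and 5, with a median of 0.0015 (-0.0024 over all genes). Without Dnmt1 fl/fl replicate 2 they were 3 and 7, with a median of -0.06 (0.016 over all genes). After removal of the length trend they were 8 and 2, with a median of 0.13 (0.049 over all genes). None passed an adjusted p of 0.05 in edgeR's quasi-likelihood test, where the adjusted p was 1.00 for each, and the share over all genes was 0%. None had an unadjusted p under 0.05 either, against 0.279% of all genes (35 genes), and DESeq2 also called 0 of the 10. Both Dnmt1 KO samples lay above both controls for 0 of the 10, against 8.14% of all genes, and below both for 1 of the 10 (Osbpl8), against 8.56%. For 2 of the 10, the log2 fold change was 0.2 or more (Soat1, Npc2), against 21.8% of all genes, and for 2 it was -0.2 or less (Osbpl8, Gramd1a), against 19.7%. The counts of the 10 genes thus lay near the shares over all genes. With 2 samples against 2, an exact two-sided permutation test cannot go below p = 0.333. The intervals leave room for differences of either sign for each of the 10, the widest being that of Gramd1a and the narrowest that of Osbp.

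**Figure D3:**
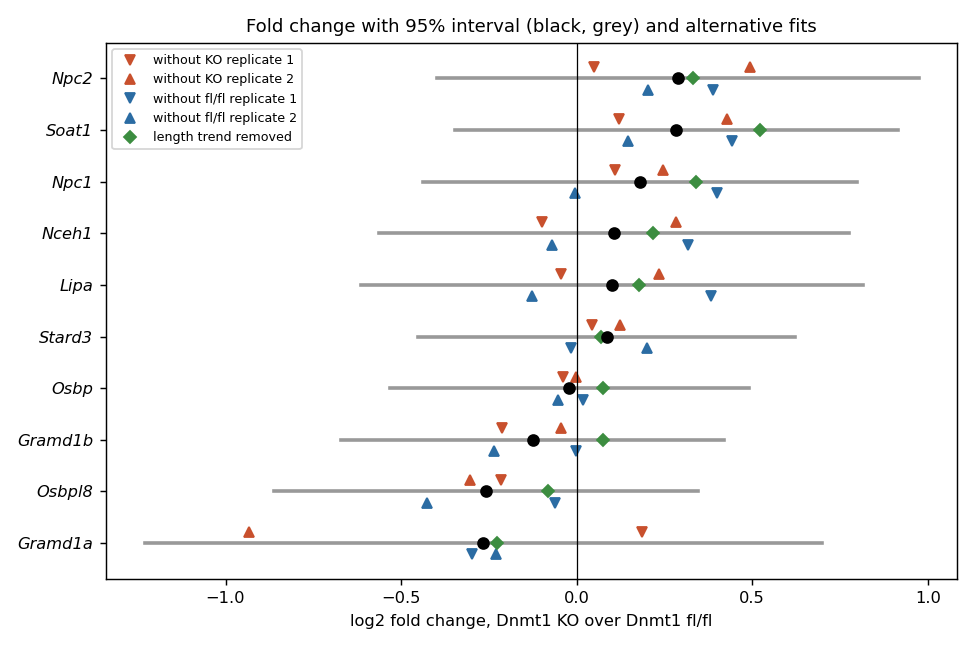
Log2 fold change of Dnmt1 KO over Dnmt1 fl/fl for each gene, with black points for the fit on all 4 samples, grey bars for its 95% interval, triangles for fits without 1 sample and diamonds for the fit after removal of a trend with transcript length. Every grey bar crosses 0, and for Gramd1a the fits without 1 Dnmt1 KO sample lie at -0.93 and 0.19.

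The samples differed within genotypes in a way the 10 genes shared in part. Dnmt1 fl/fl replicate 1 was above replicate 2 for 8 of the 10, Dnmt1 KO replicate 1 above replicate 2 for 8, and both held for 7. Dnmt1 KO replicate 1 held the highest value for 5 of the genes, and Dnmt1 fl/fl replicate 2 the lowest for 5 and the highest for none. The share of all genes with these orders was not counted, so the counts set no trait of the 10 genes apart. Over all genes tested, same-numbered deviations from the genotype mean correlated at -0.35. The median distance between the Dnmt1 KO samples was 0.22 on the log2 scale for the 10 genes, against 0.48 over all genes tested. It was also low, at 0.26, for the tested genes of the 5 lists described below. Neither set was matched in level to all genes. Between the controls the median distance was 0.27 for the 10 genes, 0.155 for the lists and 0.21 over all genes. The labels name no batch that could be set against these distances.

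A ratio of the counts of 2 genes within a sample does not depend on the scaling between libraries, so 8 pairs with opposed or successive roles were compared in this way. The ratio of Soat1 to Nceh1 counts, the ester-forming over the neutral ester-cleaving enzyme, was 1.27 and 1.35 in Dnmt1 fl/fl and 1.44 and 1.52 in Dnmt1 KO. All Dnmt1 KO values were above the controls, with a difference of 0.18 on the log2 scale and a pooled SD of 0.058. The ratio of Soat1 to Lipa was 0.410 and 0.474 in Dnmt1 fl/fl and 0.4996 and 0.4897 in Dnmt1 KO, a log2 difference of 0.17 with a pooled SD of 0.11. Here too the genotypes did not overlap. The hydrolases differed least from each other. Nceh1 over Lipa was 0.324 and 0.352 in Dnmt1 fl/fl and 0.347 and 0.323 in Dnmt1 KO, with overlapping genotypes and a log2 difference of -0.01.

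Npc1 over Gramd1b, which sets export from the endolysosome beside uptake from the plasma membrane, was 3.86 and 3.42 in Dnmt1 fl/fl and 4.48 and 4.57 in Dnmt1 KO. The log2 difference of 0.32 had a pooled SD of 0.087. Osbp over Osbpl8 was 0.186 and 0.229 in Dnmt1 fl/fl and 0.252 and 0.231 in Dnmt1 KO, a log2 difference of 0.23 with a pooled SD of 0.16 and a near tie between the replicate 2 samples. For Npc2 over Npc1, Stard3 over Npc1 and Gramd1a over Gramd1b the genotypes overlapped, with log2 differences of 0.08, -0.10 and -0.25. Leaving out 1 sample turned the sign of each of the 3, with ranges of -0.07 to 0.23, -0.42 to 0.21 and -0.89 to 0.39. Thus 4 of the 8 ratios were higher in both Dnmt1 KO samples and 0 were lower, while 17.5% of all pairs of genes tested did not overlap in either direction. The 8 pairs were chosen with earlier results of these data known, and pairs that share a gene are not independent of each other. The exact two-sided permutation p was 0.333 for each of the 4, the smallest that 2 against 2 samples allow, and 0.666 after Benjamini-Hochberg adjustment over the 8 pairs. After the trend with transcript length was removed, 1 of the 8 pairs (Npc1 over Gramd1b, log2 difference 0.29) still did not overlap, and Soat1 over Nceh1 had a log2 difference of 0.26 with overlapping genotypes. Without Dnmt1 KO replicate 1, the log2 differences of Soat1 over Nceh1, Soat1 over Lipa, Osbp over Osbpl8 and Npc1 over Gramd1b were 0.21, 0.15, 0.17 and 0.33. Without Dnmt1 fl/fl replicate 1, Soat1 over Lipa fell to 0.06 and Osbp over Osbpl8 to 0.08, and without Dnmt1 fl/fl replicate 2 they were 0.27 and 0.37.

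**Figure D4:**
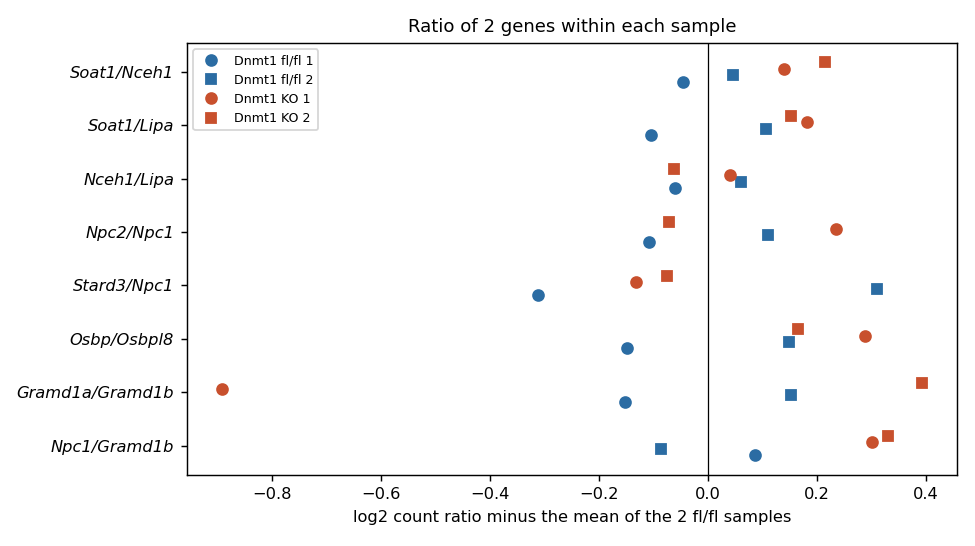
Log2 ratio of the counts of 2 genes in each sample, less the mean of the 2 Dnmt1 fl/fl samples, with blue for Dnmt1 fl/fl, red for Dnmt1 KO, circles for replicate 1 and squares for replicate 2. Both red points lie right of both blue points for Soat1/Nceh1, Soat1/Lipa, Osbp/Osbpl8 and Npc1/Gramd1b, and the red circle of Gramd1a/Gramd1b lies far to the left.

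Other genes of the same steps were read from 5 lists with 74 names, some of them older names of the same gene, of which 62 were in the table and 60 were tested. None of the 60 had an adjusted p under 0.05 in edgeR, and 0 had an unadjusted p under 0.05. Their log2 fold changes were positive for 35 and negative for 25, beside 6380 and 6162 over all genes tested, with a median of 0.07. Both Dnmt1 KO samples lay above both controls for 11 of the 60 and below for 6, beside 8.14% and 8.56% over all genes tested.

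Of the 9 other genes on the list for esterification and ester hydrolysis, 7 had positive and 2 negative log2 fold changes, with a median of 0.12. Without Dnmt1 KO replicate 1 these counts were 4 and 5, and the median -0.0082. Both Dnmt1 KO samples were above the controls for 2 of the 9 and below for 1, beside the same 8.14% and 8.56%. The list is wider than cholesterol esters: it holds Acat1 and Acat2, which in the mouse encode acetyl-CoA acetyltransferases and not the cholesterol acyltransferases once called by those names, and both are among the 7. The 2 genes above the controls were Acat2 and the triglyceride lipase gene Pnpla2. Pnpla2, whose product acts at lipid droplets, stood at 88.2 and 61.6 CPM in Dnmt1 fl/fl and at 120 and 103 CPM in Dnmt1 KO (log2 fold change 0.57, SE 0.27, edgeR unadjusted p = 0.080, adjusted p = 1.00). Lcat, the acyltransferase of plasma lipoproteins, was under 1 CPM in all 4 samples, at 0.926 and 0.718 CPM against 0.353 and 0.424 CPM, with a log2 fold change of -1.06 (SE 0.60). Soat2, the second cholesterol acyltransferase of mammals, was at 0.828 to 1.24 CPM, against 377 to 566 CPM for Soat1.

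Among 19 endolysosomal partners, 14 had positive and 5 negative log2 fold changes, with a median of 0.13, and without Dnmt1 KO replicate 1 they were 13 and 6, with a median of 0.05. The genotypes did not overlap for 8 of them, 7 with both Dnmt1 KO samples above (Scarb2, Lamp1, Stard3nl, Rab9, Vps41, Smpd1 and Anxa6) and 1 below (Lamp2). The log2 fold changes of the 7 lay between 0.11 and 0.36. Smpd1, the acid sphingomyelinase, stood at 31.2 and 31.5 CPM in Dnmt1 fl/fl and at 45.9 and 34.6 CPM in Dnmt1 KO (log2 fold change 0.36, SE 0.23), and Rab9, a GTPase of late endosomes, at 32.6 and 27.5 CPM against 36.1 and 34.9 CPM (0.24, SE 0.21). The 7 and the 1 stand beside 8.14% and 8.56% over all genes, and after removal of the length trend they were 4 and 0. No test over the list was made.

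The carriers and contact-site proteins gave lower medians. The 7 tested genes of the oxysterol-binding protein family had 4 positive and 3 negative log2 fold changes, a median of 0.03 and overlapping genotypes throughout. With total counts only as the scaling the signs were 1 and 6, while the median over all genes also fell, to -0.06. The family's median turned to -0.10 both without Dnmt1 KO replicate 2 (2 and 5) and without Dnmt1 fl/fl replicate 2 (3 and 4). Of 8 START-domain and Aster-related carriers, 3 had positive and 5 negative values, with a median of -0.21, and this direction turned without Dnmt1 KO replicate 1 (6 and 2, median 0.11). Among them the genotypes did not overlap for Stard6 alone, at 1.80 and 2.19 CPM against 1.51 and 1.48 CPM (log2 fold change -0.41, SE 0.43), which is 1 of 8 beside 8.56% over all genes. Of 17 contact-site partners, 7 had positive and 10 negative values, with a median of -0.08. After removal of the length trend they were 10 and 7 with a median of 0.04, while the median over all genes also rose, to 0.049. Without Dnmt1 fl/fl replicate 1 the 17 partners were 10 and 7 with a median of 0.05. Both Dnmt1 KO samples lay above the controls for 2 of the 17 and below for 3, beside 8.14% and 8.56% over all genes. Mospd3 and Mospd2, which like the VAP proteins carry a major sperm protein domain, lay on opposite sides of 0, at 19.7 and 15.4 against 21.9 and 22.6 CPM for Mospd3 (log2 fold change 0.34, SE 0.24) and at 107 and 103 against 69.5 and 97.6 CPM for Mospd2 (-0.33, SE 0.25).

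**Figure D5:**
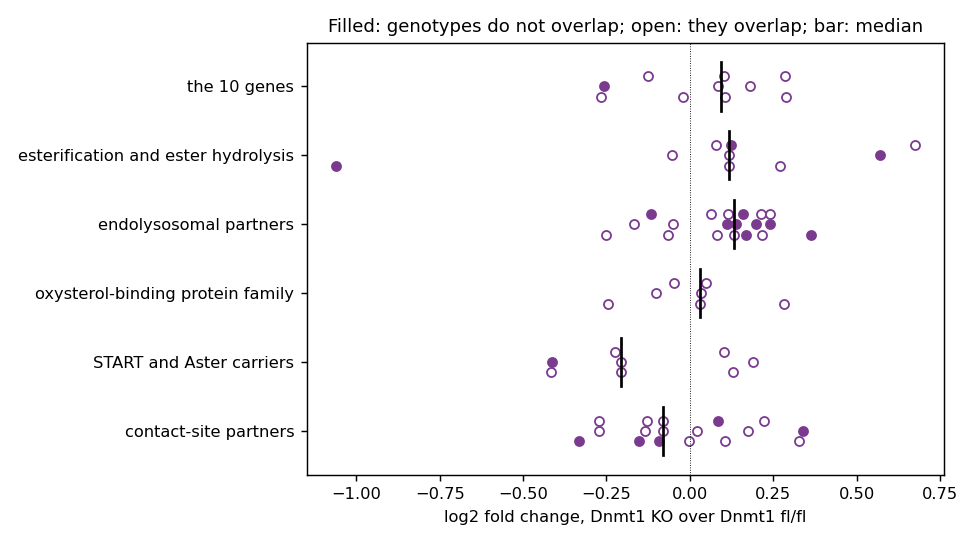
Log2 fold change of Dnmt1 KO over Dnmt1 fl/fl for the 10 genes and for each tested gene of the 5 lists, with filled circles where the genotypes do not overlap, open circles where they do and a bar for each list's median. The medians lie between -0.21 (START and Aster carriers, 0.11 without Dnmt1 KO replicate 1) and 0.13 (endolysosomal partners), and 7 of the 8 filled circles of the endolysosomal partners lie right of 0.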

How the data were processed

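The authors aligned 150-base paired-end reads with HISAT2 and counted them per gene with featureCounts (versions 2.0.5 and 1.5.0-p3 and build mm10 per the submitters' processing notes; annotation and strand setting not given in the sources used here), and the deposited values are estimated counts per gene symbol without normalization. Between 72.6% and 76.4% of the values of a sample were whole numbers, and the sources do not say how reads with several possible genes were divided. All counts of the 10 genes were whole but for Soat1, Npc1 and Osbpl8. A second, shorter table was not used, and 0 columns of the main table were left out. The authors' own test was DESeq2 (version 1.20.0).

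Counts were rounded and tested with edgeR 4.0.16 (R 4.3.3) by its quasi-likelihood test after filterByExpr and TMM scaling, without covariates, with Benjamini-Hochberg adjustment over all 12542 genes tested. The replicates had a coefficient of variation of 28.9%, which edgeR calls biological although the labels tie no sample to an animal. The counts of the 10 genes ran from 771 to 36845 per sample, and 3 counts, the least taken as detected, equal 0.120 to 0.151 CPM. These limits cover counting error only. Symbols were matched to GENCODE M21 (GRCm38) for 99.6% of 13825 symbols. No stretch of 100 bases of a transcript of the 10 genes was shared with another gene. Same-numbered deviations correlated at -0.35, but with 2 samples a genotype this cannot settle whether replicate numbers pair the samples. The 10 genes, the lists and the gene pairs were chosen with earlier results of these data known. Of the other genes, those named are, in each list, the 2 with the largest absolute log2 fold change among genes whose genotypes did not overlap. Soat2, Acat1, Acat2 and Rmc1, and the remaining endolysosomal genes that did not overlap, were named after their values were seen. Alternatives were other scaling factors, removal of a loess trend (span 0.5) with transcript length, other filters, DESeq2 1.42.0, limma-voom (limma 3.58.1), a replicate block, fits without 1 sample, and other transcript lengths for levels per kilobase. The tests were checked on simulated counts.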

Additional observations from a re-analysis of the deposited data

How the results depend on the processing

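The count of 0 genes with an adjusted p under 0.05 (35 unadjusted) held in 10 of 15 alternative fits, and DESeq2 gave 1 (39 unadjusted). A replicate block gave 0 genes (34 unadjusted), and log2 fold changes of 0.28 for Soat1 and -0.37 for Gramd1a, and changed no call among the 10 genes. Because same-numbered deviations correlated at -0.35, a crossed pairing was added after seeing the data, and it gave 3 genes (297 unadjusted, 0 of the 10). Fits without 1 sample, in which a lone sample is assumed to vary like the other genotype, gave 0 to 1061 genes, the most without Dnmt1 KO replicate 2 (of 12754 tested) and 10 without Dnmt1 fl/fl replicate 2, and 0 to 1 of the 10 genes, the 1 being Gramd1a without Dnmt1 KO replicate 2. Without a filter on low counts 60 genes had an unadjusted p under 0.05, against 35. The number of the 10 genes whose genotypes did not overlap, 1 with TMM factors, was 3 with total counts only, 0 after removal of the length trend and 4 to 7 without 1 sample, where a comparison of 2 samples with 1 overlaps less by construction. Total counts alone moved the median of all genes to -0.06 and the genes past 0.2 to 1696 higher and 3352 lower, against 2730 and 2476. The fits split 2328 to 2947 with limma-voom, 2368 to 2981 with the replicate block, and 2993 to 1965 without the length trend. Some directions reversed. Without 1 sample, the log2 fold change of Nceh1 ran from -0.10 to 0.32, Lipa from -0.13 to 0.38, Npc1 from -0.0050 to 0.40, Stard3 from -0.017 to 0.20, Osbp from -0.052 to 0.017 and Gramd1a from -0.93 to 0.19. After removal of the length trend Osbp was 0.075 and Gramd1b 0.074, and with the block as well 0.068 and 0.033. The directions of Soat1, Npc2 and Osbpl8 held in all 15 alternatives. Soat1 over Nceh1 moved to a log2 difference of 0.26 after removal of the length trend. The cause of these changes was not tested, except where the alternative's own construction is named.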
